A study of Mus musculus with 18 samples.

Results

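Psmb1 to Psmb7 encode the β subunits of the constitutive 20S proteasome, and all 7 were taken by symbol from a table of 43629 gene IDs in which Ensembl IDs had been matched to symbols. The filter on low counts kept 15671 genes, all 7 members among them. The RNA came from cultures of mouse cortical neurons, transduced with lentivirus on day 7 in vitro, harvested 10 days later and sequenced as poly(A)-enriched bulk libraries. There were 3 groups of 6 libraries: mSc cultures overexpressed the red fluorescent protein mScarlet and served as control, Psmb5 cultures overexpressed the β5 subunit, and Psmb8 cultures overexpressed β5i, its counterpart in the immunoproteasome. The labels give no promoter for the constructs, no animal strain or age, and do not say whether replicates came from separate dissections. A p-value here therefore reflects library-to-library spread, part of which may be technical. The protocol text on treatment speaks of an Ifng construct in all samples, unlike the treatment tags and the design text.

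The 20S core is a hollow cylinder in which outer rings of α subunits gate access and inner rings of β subunits hold the proteolytic sites. Psmb6 (β1), Psmb7 (β2) and Psmb5 (β5) carry the active sites, which cut after acidic, basic and hydrophobic residues respectively, while Psmb3 (β3), Psmb2 (β4), Psmb1 (β6) and Psmb4 (β7) are structural. Interferon induces Psmb9 (β1i), Psmb10 (β2i) and Psmb8 (β5i), which replace β1, β2 and β5 in newly assembled cores. When proteasome capacity falls short, cells are known to raise transcription of the subunit genes together, through the factor NRF1 (Nfe2l1) and antioxidant response elements in their promoters.

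Library totals ranged from 15337511 to 21074229 counts, of which 99.9% or more fell on tested genes in every library. Neuronal markers were high in all libraries, with a sum over Rbfox3, Map2, Tubb3, Snap25 and Syt1 of 2730 to 3590 CPM (counts scaled to library size, with TMM factors). Astrocyte markers (Gfap, Aqp4 and 4 others) summed to 3670 to 4220 CPM in the libraries numbered 1 and to 1210 to 1770 CPM in the other 15. The 5 microglial markers summed to at most 2.5 CPM, with Tmem119 at no more than 0.0588 CPM, and the endothelial marker Cldn5 was at 0 in all libraries. The 12 interferon-stimulated genes summed to 93.2 to 147 CPM in the libraries numbered 3 and 244 to 393 CPM in those numbered 6, against 16.9 to 37.6 CPM in the other 12. Libraries of the same number in different groups resembled each other, and 64.3% of tested genes differed between numbers (edgeR, Benjamini-Hochberg adjusted p under 0.05), so the number was also fitted as a block. In bulk libraries like these, fewer cells of a type and less RNA per cell cannot be told apart.

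The members lie on 6 chromosomes and are not clustered in the GRCm38 annotation. Of the catalytic subunits, Psmb5 (ENSMUSG00000022193) lies at chr14:54614119-54618022 on the minus strand with 3 exons, Psmb6 (ENSMUSG00000018286) at chr11:70525367-70527858 on the plus strand with 6 exons, and Psmb7 (ENSMUSG00000026750) at chr2:38588036-38644087 on the minus strand with 8 exons. Psmb11, the thymus-specific β5t gene, lies next to Psmb5 at chr14:54621433-54629556 and had at most 1 count in a library. Of the structural subunits, Psmb1 (ENSMUSG00000014769) lies at chr17:15475021-15499751 on the minus strand with 6 exons and Psmb2 (ENSMUSG00000028837) at chr4:126677630-126709714 on the plus strand with 6 exons. Psmb3 (ENSMUSG00000069744) lies at chr11:97703399-97713500 on the plus strand with 6 exons and Psmb4 (ENSMUSG00000005779) at chr3:94884093-94886961 on the minus strand with 7 exons. Exon numbers are those of the principal transcript. Psmb7 overlaps Nek6 and Gm13586 on the opposite strand and Gm27634 on the same strand, and Psmb5 overlaps the microRNA gene Mir686. Among the immunosubunits, Psmb8 overlaps Gm20496, Psmb9 overlaps Tap1 and Psmb10 overlaps Gm16156, each on the opposite strand. All these overlaps are of whole gene spans, and shared exons were not examined. The strand setting of the counting is not given in the sources used here, so reads of any shared exons cannot be told apart. Processed copies took few reads: Psmb5-ps had 3 counts over all 18 libraries, Psmb6-ps 1, Psmb6-ps2 2 and Psmb7-ps2 7.

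Promoter windows of RefSeq (GRCm38.p6, 250 bases before to 50 after the start of the gene) were at hand for 4 of the 7 members: Psmb3, Psmb4, Psmb5 and Psmb6. They are shown because the members varied together across libraries, and 3 motifs were searched on both strands: TGACNNNGC, the core of the antioxidant response element, the CCAAT box and the GC box GGGCGG. The 120 bases before each start follow, on the strand of the gene, with matches in capitals.
Psmb5, chr14:54617996-54618115, minus strand: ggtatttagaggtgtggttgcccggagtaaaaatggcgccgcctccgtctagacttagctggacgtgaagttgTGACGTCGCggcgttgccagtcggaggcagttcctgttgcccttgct
Psmb6, chr11:70525237-70525356, plus strand: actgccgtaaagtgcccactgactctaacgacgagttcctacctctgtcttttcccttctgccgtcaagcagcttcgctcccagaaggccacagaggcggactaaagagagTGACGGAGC
Psmb3, chr11:97703314-97703433, plus strand: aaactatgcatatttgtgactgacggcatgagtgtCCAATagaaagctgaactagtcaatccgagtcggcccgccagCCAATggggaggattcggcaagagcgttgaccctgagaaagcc
Psmb4, chr3:94886959-94887078, minus strand: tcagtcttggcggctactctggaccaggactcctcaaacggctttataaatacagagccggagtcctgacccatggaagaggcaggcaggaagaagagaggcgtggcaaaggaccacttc
Psmb5 held TGACGTCGC from position -47 to -39 relative to the start, and Psmb6 held TGACGGAGC from -9 to -1. Both are catalytic subunits. Psmb3 held CCAAT from -85 to -81 and from -43 to -39. Psmb6 also held a GC box on the opposite strand from -182 to -177, outside the stretch printed. The window of Psmb4 matched none of the motifs, which says only that these letters are not in it. The motifs did not overlap each other. Over 32851 promoter windows of the same length, 12.4% held TGACNNNGC, 37.4% held CCAAT and 35.7% held GGGCGG. Of the immunosubunits, Psmb9 held CCAAT on the opposite strand from -8 to -4 and a GC box from -55 to -50, and Psmb8 and Psmb10 matched none.

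In control cultures the levels of the 7 transcripts per length spanned 1.67-fold or 2.69-fold, depending on which length was used. Per kilobase of principal transcript, the level in mSc cultures was 78.0 ± 3.74 CPM per kb for Psmb4, 71.0 ± 3.26 for Psmb7, 66.9 ± 4.40 for Psmb6, 55.0 ± 3.19 for Psmb3, 51.7 ± 1.70 for Psmb2, 47.8 ± 1.66 for Psmb5 and 46.7 ± 1.16 for Psmb1 (SD, n = 6 each). Psmb4 (β7) was thus highest and Psmb1 (β6) lowest, 1.67-fold apart. Neighbours were compared with an unpaired test, although both genes were measured in the same libraries. Those that did not pass it were Psmb7 and Psmb6 (exact two-sided permutation p = 0.11, 0.13 adjusted over the 6 neighbour pairs), Psmb3 and Psmb2 (exact p = 0.041, adjusted 0.062) and Psmb5 and Psmb1 (exact p = 0.20, adjusted 0.20). Within libraries, however, Psmb3 lay above Psmb2 in every mSc library, for example at 50.64 against 49.4 CPM per kb in replicate 5. Psmb7 and Psmb6, and Psmb5 and Psmb1, changed order between libraries. The other neighbours differed, with adjusted exact p between 0.013 and 0.017.

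The order changed with the other length. Per kilobase of all annotated exons merged, which are longer than the principal transcript for every member but Psmb5, the range widened to 2.69-fold. Psmb5 then led with 47.8 ± 1.66 CPM per kb, followed by Psmb4 at 47.3 ± 2.27 and Psmb2 at 36.9 ± 1.21. Psmb6 stood at 28.5 ± 1.88, Psmb7 at 24.1 ± 1.11, Psmb3 at 18.3 ± 1.06 and Psmb1 at 17.8 ± 0.444 (SD, n = 6 each). On this scale Psmb5 and Psmb4 (exact permutation p = 0.69, adjusted 0.69) and Psmb3 and Psmb1 (exact permutation p = 0.39, adjusted 0.47) did not pass the same unpaired test. Both pairs also changed order between libraries. Psmb1 was last by either length, while Psmb5 was first by one and next to last by the other.

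**Figure D1:**
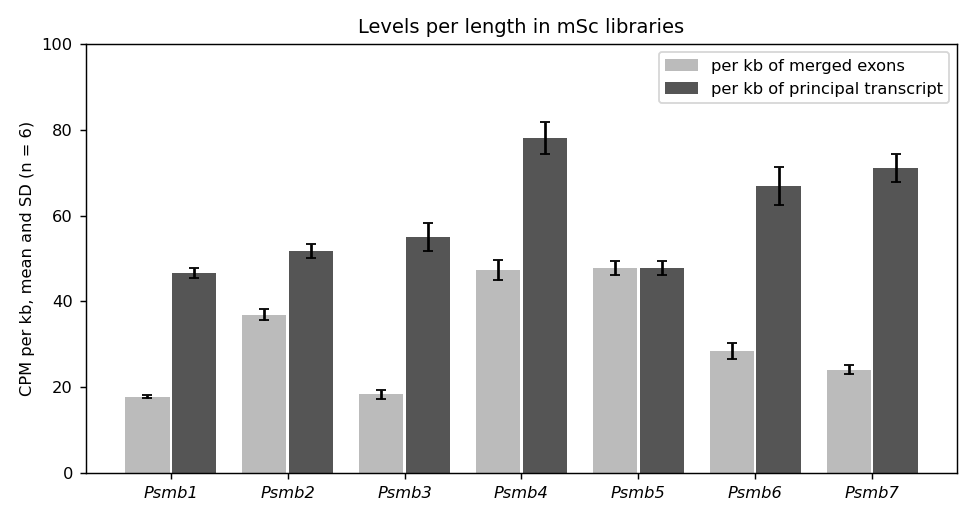
Levels of Psmb1 to Psmb7 in the 6 mSc libraries in CPM per kilobase, by merged exons (light bars) and by principal transcript (dark bars); bars show means and error bars the SD. Psmb5 has the same bar by both lengths, and the span between the highest and lowest bar is 2.69-fold by merged exons and 1.67-fold by principal transcript.

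The members varied little between control cultures. In CPM, the coefficient of variation over the 6 mSc libraries was 2.49% for Psmb1, 3.28% for Psmb2, 3.48% for Psmb5, 4.59% for Psmb7, 4.79% for Psmb4, 5.80% for Psmb3 and 6.58% for Psmb6. The median over 10057 genes at a mean of 10 CPM or more was 9.70%. That set was not matched to the members on level, and genes with fewer counts have more sampling noise. Across all 18 libraries, Psmb7 (adjusted p = 0.0207), Psmb3 (0.0173) and Psmb4 (0.0421) differed between replicate numbers (edgeR with group and number in the model). Psmb2 (adjusted p = 0.173), Psmb5 (0.163), Psmb6 (0.454) and Psmb1 (0.610) did not pass in the same edgeR fit. For Psmb5 that fit includes the transgene counts of the Psmb5 libraries, so the endogenous gene was not tested alone. The share of all genes that passed was the 64.3% given above.

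Psmb5 overexpression raised the count of Psmb5. Psmb5 libraries 1 to 6 held 561, 238, 491, 462, 437 and 520 CPM of Psmb5, against 41.0, 42.9 and 45.1 CPM as the lowest, median and highest of the mSc libraries. All 6 Psmb5 libraries lay far above all mSc libraries, and replicate 2 had the lowest value among them. Psmb5 rose by 3.39 on the log2 scale (SE 0.14, edgeR adjusted p = 4.27e-11), or 10.5-fold. It was the 1 gene called of 15671, which is 0.00638% of those tested, with and without the replicate block alike. Gene counts do not separate the transgene from the chromosomal gene, so the endogenous Psmb5 level in these cultures cannot be read.

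Transcripts of the other β subunits lay close to the control while Psmb5 was raised. Of the 6 other members none was called, in Psmb5 against mSc, with the replicate block or without it. The structural subunits had log2 fold changes of -0.01 for Psmb1 (SE 0.047), 0.04 for Psmb2 (SE 0.052), 0.04 for Psmb3 (SE 0.061) and 0.04 for Psmb4 (SE 0.046). The catalytic subunits Psmb6 and Psmb7 had 0.06 (SE 0.051) and 0.02 (SE 0.054). All 6 had an edgeR adjusted p of 1 without the block and of 0.829 or more with it. Their median was 0.04, against 0.00 over all genes tested, and ran from 0.02 to 0.05 with 1 library left out. The mean over the 6 was 0.0328 ± 0.0303 higher (SD over 6 pairs). It was positive in 5 of 6 pairs and -0.00803 in pair 2.

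The data limit how large a missed change could be. The upper ends of the 95% intervals of the fit without the block were increases of 6.54% for Psmb1, 9.73% for Psmb4, 9.99% for Psmb7, 11.2% for Psmb2, 12% for Psmb3 and 12.4% for Psmb6. On the log2 scale, the lower ends were -0.106 for Psmb1, -0.0914 for Psmb3, -0.09 for Psmb7, -0.066 for Psmb2, -0.0587 for Psmb4 and -0.045 for Psmb6. None of the 6 was higher in all 6 same-numbered pairs, where 2.04% of all genes were, and none had an unadjusted p under 0.05 in the upward direction with the block, where 3.40% of all genes did. By member, the Psmb5 library was the higher one in 3 pairs for Psmb1, Psmb2 and Psmb3, in 4 pairs for Psmb6 and Psmb7 and in 5 pairs for Psmb4. For each of these 6 members the Psmb5 and mSc groups overlapped. The share of all genes with groups that do not overlap was not computed for this comparison.

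Within the Psmb5 group the others were compared with the amount of Psmb5 in the same library, over 6 libraries and 6 relations. Psmb3 had the highest correlation with Psmb5 (Pearson r = 0.829, exact permutation p = 0.05, adjusted 0.30; Spearman rho = 0.714, exact p = 0.14, adjusted 0.82). Without replicates 1 and 2, the libraries farthest from the median of Psmb5, r for Psmb3 was 0.12 over the 4 libraries left. Those 4 span only 437 to 520 CPM of Psmb5, and a narrower range can by itself change r. Values of r over these 4 libraries therefore cannot decide whether a relation holds. The other 5 members had r from -0.324 (Psmb1) to 0.552 (Psmb7), with exact permutation p of 0.28 or more, adjusted 0.62 or more. The Spearman rho of these 5 lay between -0.143 and 0.0857, with exact permutation p of 0.80 or more, adjusted 1. Without replicates 1 and 2 the r of Psmb2 went from 0.544 to -0.565, that of Psmb7 from 0.552 to -0.549, that of Psmb4 from -0.177 to 0.311 and that of Psmb6 from 0.191 to 0.429. The r of Psmb1 went from -0.324 to -0.067.

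**Figure D2:**
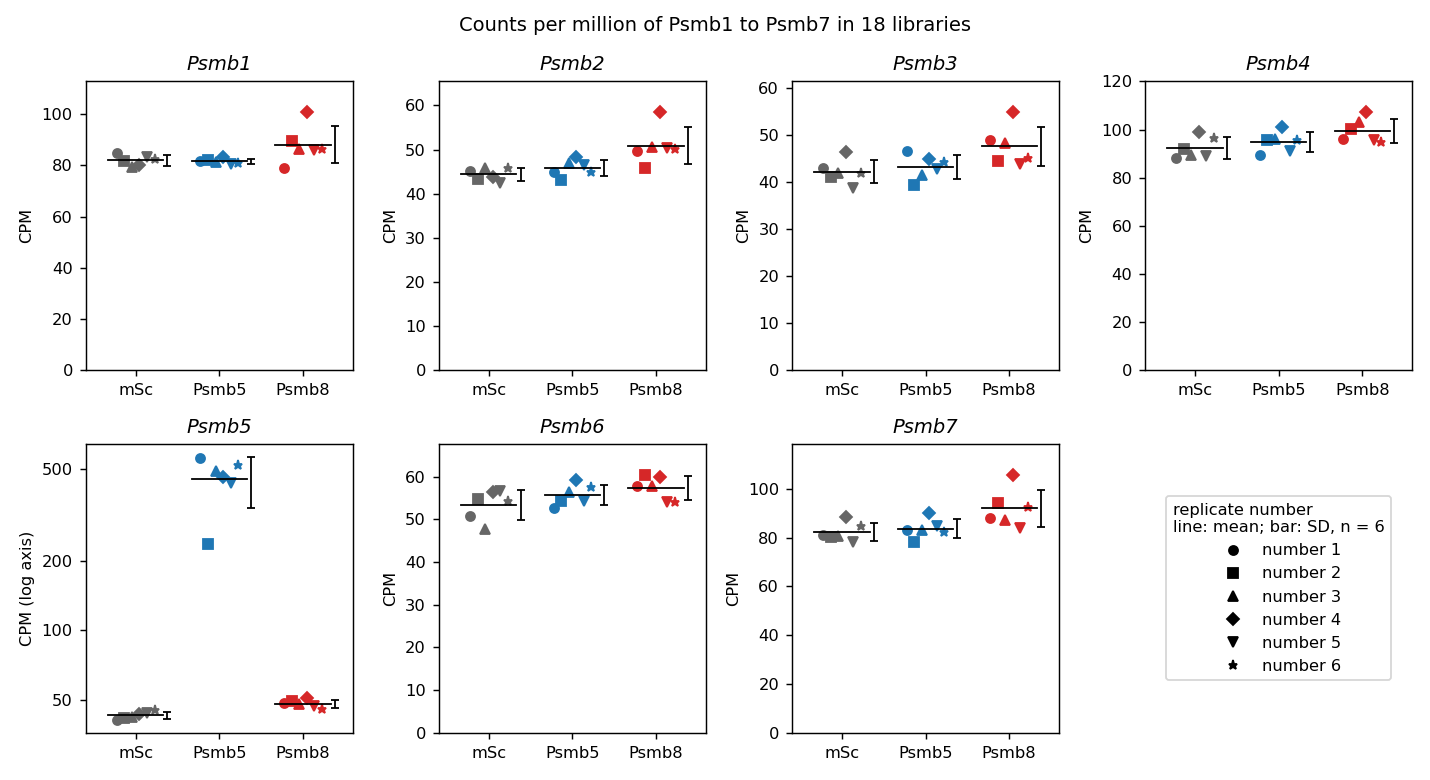
CPM of each member in the 18 libraries by group, with marker shapes for replicate numbers, a line at the group mean and a bar for the SD (n = 6); the Psmb5 panel has a log axis and the other panels start at 0. Psmb5 libraries reach 238 to 561 CPM of Psmb5, while the other members stay near the mSc level there and reach their highest values in Psmb8 libraries.

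The share of Psmb5 among the transcripts of the 7 members can be read per library. These are RNA counts that include the transgene, and the protein in the ring was not measured. Psmb5 made up 9.45% to 10.2% of the summed CPM of the 7 members in mSc cultures and 9.50% to 10.3% in Psmb8 cultures. In Psmb5 libraries 1 to 6 it made up 58.5%, 37.7%, 54.8%, 52.0%, 52.3% and 56.2%. The ratio of Psmb5 to the geometric mean of the other 6 was 0.683 ± 0.0231 in mSc cultures, 0.697 ± 0.0248 in Psmb8 cultures and 7.00 ± 1.72 in Psmb5 cultures (SD, n = 6 each). The mSc and Psmb8 ranges overlapped (0.656 to 0.715 and 0.658 to 0.723), and the Psmb5 libraries ran from 3.84 to 8.80. Per kilobase, Psmb5 stood at 502 ± 126 CPM per kb in Psmb5 cultures, against 80.1 ± 3.48 for Psmb4, the highest of the others by principal transcript. The value for Psmb5 divides transgene counts by the length of the annotated transcript, which may differ from that of the transgene.

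**Figure D3:**
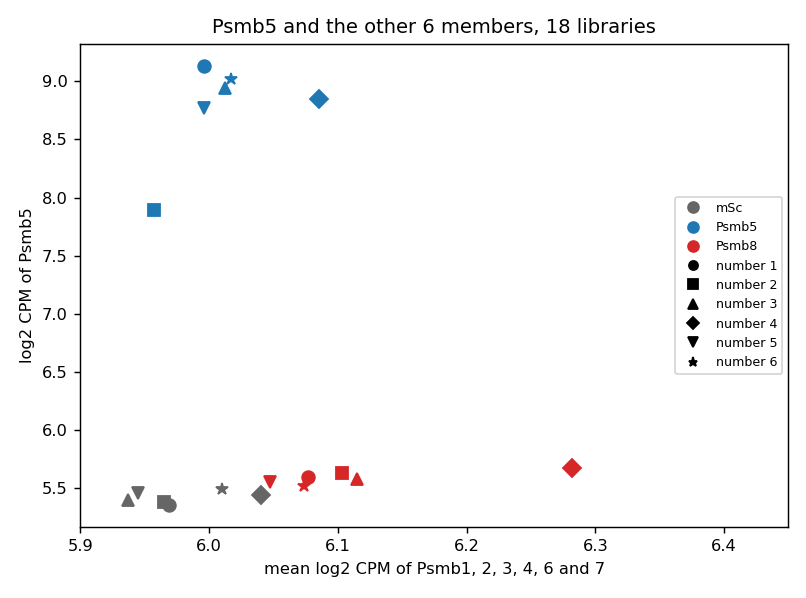
Log2 CPM of Psmb5 (y axis) against the mean log2 CPM of the other 6 members (x axis) in each of 18 libraries, coloured by group with marker shapes for replicate numbers. Psmb5 libraries sit at the top, at 238 to 561 CPM of Psmb5, with x values of 5.96 to 6.09, and Psmb8 replicate 4 stands farthest right at 6.28.

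In Psmb8 cultures all 7 members had higher mean levels than in mSc cultures, by 7.41% (Psmb6) to 14.5% (Psmb2), but none passed the threshold in edgeR. Of the catalytic subunits, Psmb5 stood at 41.0, 42.9 and 45.1 CPM in mSc (lowest, median, highest) and at 45.8, 48.1 and 51.1 CPM in Psmb8 cultures. These Psmb5 counts come from libraries without the Psmb5 transgene, and the groups did not overlap (two-sided exact permutation test, p = 0.0022, a value no 6 against 6 comparison can go below). Of all tested genes, 0.0702% had Psmb8 libraries wholly above mSc libraries. Psmb7 stood at 78.1, 80.9 and 88.6 CPM in mSc and at 83.9, 90.4 and 106 CPM in Psmb8 cultures. Psmb6 stood at 47.7, 54.5 and 56.6 CPM in mSc and at 54.0, 57.8 and 60.4 CPM in Psmb8 cultures. For both Psmb7 and Psmb6 the groups overlapped.

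The structural subunits showed the same picture. Psmb2 stood at 42.4, 44.5 and 45.9 CPM in mSc and at 45.8, 50.3 and 58.5 CPM in Psmb8 cultures, where 5 of 6 libraries lay above the highest mSc library. Psmb3 stood at 38.8, 41.9 and 46.2 CPM in mSc and at 43.9, 46.6 and 54.8 CPM in Psmb8 cultures. Both differences were positive in 6 of 6 pairs, and both sets of groups overlapped. Psmb1 stood at 79.3, 82.2 and 85.0 CPM in mSc and at 79.1, 86.4 and 101 CPM in Psmb8 cultures. Psmb4 stood at 88.2, 90.6 and 98.9 CPM in mSc and at 94.8, 98.1 and 107 CPM in Psmb8 cultures. Psmb1 and Psmb4 were higher in 5 of 6 pairs. Psmb8 replicate 4 was the highest library of its group for Psmb1, Psmb2, Psmb3, Psmb4, Psmb5 and Psmb7, and replicate 2 for Psmb6.

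In edgeR without the block, the log2 fold changes in Psmb8 against mSc were 0.20 for Psmb2 (SE 0.052), 0.18 for Psmb3 (SE 0.061), 0.17 for Psmb5 (SE 0.134), 0.16 for Psmb7 (SE 0.054), 0.11 for Psmb4 (SE 0.046), 0.10 for Psmb1 (SE 0.047) and 0.10 for Psmb6 (SE 0.051). All had an adjusted p of 1, and 0.00638% of genes were called, the transgene Psmb8 alone. With the replicate block 0.325% of genes were called in edgeR and still no member, with adjusted p of 0.0532 for Psmb2, 0.0732 for Psmb7, 0.0837 for Psmb3, 0.199 for Psmb4, 0.370 for Psmb1, 0.407 for Psmb6 and 0.655 for Psmb5. The smallest of these lay just above the threshold. The blocked DESeq2 fit called Psmb2 (log2 fold change 0.19, adjusted p = 0.0227) and Psmb7 (0.16, adjusted p = 0.028), among 135 genes called of 15671 tested. Over the alternatives tried, the adjusted p ranged from 0.0227 to 1 for Psmb2 and from 0.028 to 1 for Psmb7. The edgeR value of Psmb5 carries the spread of the Psmb5 group, since all 18 libraries share 1 estimate per gene. In a blocked edgeR fit of mSc and Psmb8 libraries alone, Psmb5 had the same log2 fold change of 0.17 with an SE of 0.045 and an adjusted p of 0.226.

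At an unadjusted p under 0.05 in the blocked edgeR fit, 6 of the 6 members other than Psmb5 lay higher in Psmb8 cultures, against 5.44% of all genes. Psmb2, Psmb3 and Psmb7 were higher in all 6 same-numbered pairs, as was Psmb5, against 3.17% of all genes. None of the 6 others had groups without overlap. Their median log2 fold change without the block was 0.13, against 0.00 over all genes tested. The mean over the 6 was 0.139 ± 0.0635 higher (SD over 6 pairs), with differences of 0.108, 0.138, 0.178, 0.243, 0.102 and 0.0642 in pairs 1 to 6. It was positive in every pair and highest in pair 4. Markers of cell types also lay off 0 in this comparison with the block: the median log2 fold change was 0.13 over 3 inhibitory neuron markers (2 above 0), -0.13 over 5 oligodendrocyte markers (0 above 0) and -0.06 over 6 astrocyte markers (2 above 0). It was 0.00 over 5 neuronal markers (3 above 0) and 0.04 over 3 excitatory neuron markers (2 above 0). The smallest edgeR adjusted p among these markers was 0.21 (Tubb3), and their part in the members' levels was not tested. Without Psmb8 replicate 4 the median was 0.10, and the log2 fold change of Psmb1 was 0.06.

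**Figure D4:**
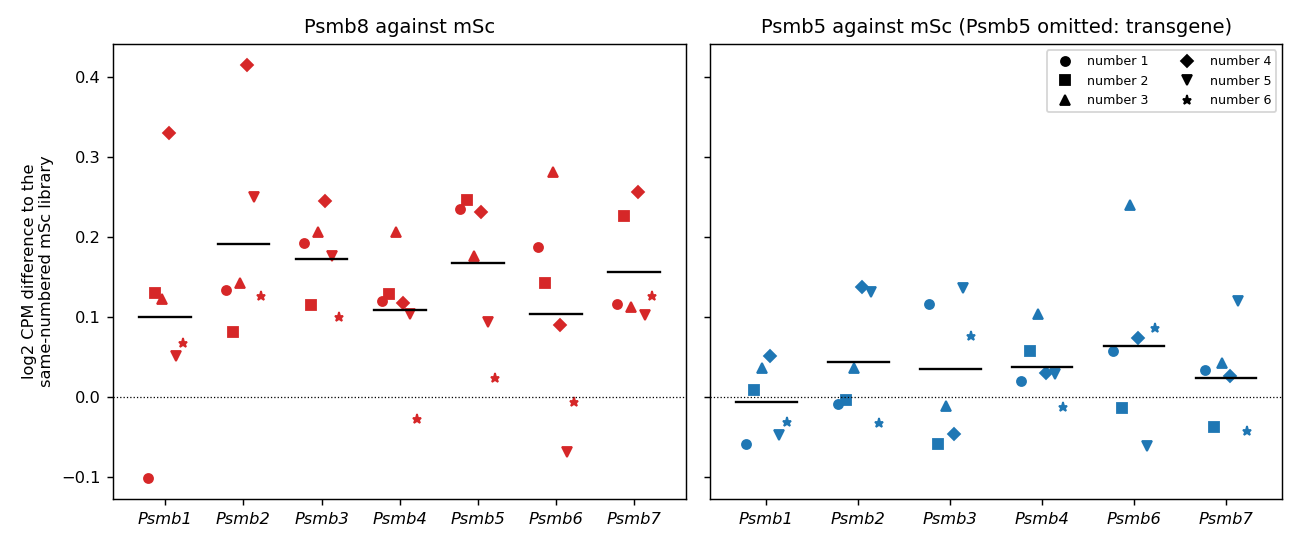
Log2 CPM difference of each member between same-numbered libraries, for Psmb8 minus mSc (left) and Psmb5 minus mSc (right, without Psmb5), with a marker per pair, a line at the mean and a dotted line at 0; both panels use the same mSc libraries. The means of the 7 members lie between 0.0997 and 0.192 on the left and those of the 6 between -0.00692 and 0.0635 on the right.

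The overexpression groups were also compared with each other directly, in the same fit of all 18 libraries, so that mSc libraries enter the estimate of the spread. Psmb5 fell by 3.23 on the log2 scale in Psmb8 against Psmb5 cultures (SE 0.14, edgeR adjusted p = 9.2e-11), where only the Psmb5 libraries hold the Psmb5 transgene. None of the other 6 members was called: 0.0128% of genes were called without the block and 0.0383% with it. The log2 fold changes in edgeR without the block were 0.15 for Psmb2, 0.14 for Psmb3, 0.14 for Psmb7, 0.11 for Psmb1, 0.07 for Psmb4 and 0.04 for Psmb6, with an adjusted p of 1 for each. With the block, Psmb1, Psmb2, Psmb3, Psmb4 and Psmb7 lay higher at an unadjusted p under 0.05, as did 3.73% of all genes in the upward direction. The edgeR adjusted p of these members ran from 0.284 (Psmb7) to 0.644 (Psmb4). Psmb2 and Psmb3 were higher in 6 of 6 pairs, against 2.30% of all genes. Psmb6 was higher in 4 of 6 pairs. The median of the 6 was 0.12, and 0.08 without Psmb8 replicate 4.

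The other genes of the pathway were described from lists of the remaining proteasome parts, with the replicate block and in Psmb8 against mSc. In the α ring, whose subunits gate the core, 7 of 7 genes lay above 0, the median log2 change was 0.12 and none was called; Psma5 had the smallest p (0.16, SE 0.043, edgeR adjusted p = 0.12). In the 19S base, which unfolds substrates with its ATPases, 10 of 10 lay above 0 with a median of 0.14, and 1 was called: Psmc5, an ATPase, rose by 0.20 (SE 0.040, edgeR adjusted p = 0.033). In the 19S lid, which removes ubiquitin, 9 of 9 lay above 0 with a median of 0.13 and none called, and Psmd11 had the smallest p (0.16, SE 0.036, edgeR adjusted p = 0.058). Over all genes the median was 0.00 and 0.325% were called. The number of genes higher in 6 of 6 pairs was 5 of 7 in the α ring, 7 of 10 in the base and 6 of 9 in the lid, against the 3.17% of all genes given above.

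The lists of genes outside the 26S particle itself had lower medians. Of 8 assembly chaperones 5 lay above 0 with a median of 0.08 and none called, and Pomp, which helps assemble the β ring, had the smallest p (0.14, SE 0.045, edgeR adjusted p = 0.21). Of 5 activators and inhibitors 2 lay above 0 with a median of -0.01, and Psme3, a nuclear activator subunit, stood at 0.07 (SE 0.035, edgeR adjusted p = 0.49). Of 4 genes of transcription control 2 lay above 0 with a median of 0.00, and Ngly1, which processes NRF1, stood at 0.12 (SE 0.070, edgeR adjusted p = 0.57). In Psmb5 against mSc the medians of the 6 lists lay between -0.01 and 0.03 with none called. That comparison uses the same mSc libraries.

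Across all 18 libraries the members other than Psmb5 varied together, with pairwise Pearson r of log2 CPM from 0.335 (Psmb2 and Psmb6) to 0.824 (Psmb3 and Psmb7). These r describe libraries that share groups and replicate numbers. Among 10050 other genes at a mean of 10 CPM or more, the 10 with the highest r to the mean of the 6 standardised profiles were Psmd12 (0.898), Mllt11 (0.896), Psma5 (0.880), Mdh1 (0.879), Psmd6 (0.878), Psmc3 (0.869), Psmc1 (0.867), Psmc2 (0.860), Timm23 (0.841) and Psmc5 (0.835). Of these, 7 encode subunits of the α ring or the 19S particle, as do 14 of the first 50 and 16 of the first 100. The 26 genes of those parts that were ranked had a median r of 0.778, against 0.0481 over all genes ranked. Mdh1 encodes cytosolic malate dehydrogenase and Timm23 a mitochondrial import channel. Psmb10, an immunosubunit, had r = 0.052.

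Each catalytic member was set against the immunosubunit that replaces it, as a ratio of levels per kilobase of principal transcript. Psmb9 to Psmb6 was 0.0559 ± 0.0693 (SD, n = 6) for the mSc group, 0.0421 ± 0.0529 for the Psmb5 group and 0.0338 ± 0.0420 for the Psmb8 group. Values differed widely between replicate numbers: mSc libraries numbered 3 and 6 had 0.0921 and 0.182, and the other 4 lay between 0.00774 and 0.0201. The interferon-stimulated genes were high in the same libraries, and their part in the ratios was not tested. In Psmb8 against mSc 2 of the 11 tested interferon-stimulated genes lay above 0 with the block, their median log2 fold change was -0.31, and 1 was called, the GTPase gene Gbp2, with a log2 fold change of -0.86 (SE 0.14, edgeR adjusted p = 0.006). In Psmb8 against mSc the log2 ratio was -0.60 ± 0.31 (SD over pairs) and lower in 6 of 6 pairs. The exact permutation p was 0.54, adjusted 0.75 over 9 tests of ratios. The exact sign-flip p was 0.031, the smallest that 6 pairs can give, adjusted 0.07 over 9 tests. Those sign-flip tests include the ratios of Psmb8 to Psmb5, which the transgenes set and which have the same p of 0.031. The adjusted 0.07 depends on them and says little about the Psmb9 ratio alone. Psmb9 itself stood at 4.95 ± 6.27 CPM in mSc and 3.15 ± 3.83 in Psmb8 cultures, with a log2 difference of -0.476 ± 0.227 (SD over pairs). Outside numbers 3 and 6 it rested on few reads, with 12 to 42 counts in mSc libraries and 10 to 28 in Psmb8 libraries. The gene span of Psmb9 overlaps that of Tap1 on the opposite strand, and reads of any shared exons cannot be told apart.

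Psmb10 to Psmb7 was 0.214 ± 0.0490 (SD, n = 6) for the mSc group, 0.204 ± 0.0440 for the Psmb5 group and 0.192 ± 0.0308 for the Psmb8 group, and did not differ beyond its spread (Psmb8 against mSc: log2 difference -0.15, exact permutation p = 0.39, adjusted 0.75). The libraries numbered 6 were highest in each group, at 0.308, 0.287 and 0.231. Psmb8 to Psmb5 was 0.0796 ± 0.0961 (SD, n = 6) for the mSc group, 0.00613 ± 0.00566 for the Psmb5 group and 10.2 ± 2.51 for the Psmb8 group. Transgene counts enter this ratio in both overexpression groups. They were divided by the lengths of the annotated transcripts, which may differ from those of the transgenes. The log2 ratio was 7.94 higher in Psmb8 than in mSc cultures (exact permutation p = 0.0022, adjusted 0.0097) and differed by -3.48 in Psmb5 against mSc cultures (exact permutation p = 0.0065, adjusted 0.019). The constructs fixed the outcome of both tests, so these p-values only check the labels and say nothing about endogenous subunits. In Psmb8 cultures the β5i transcript exceeded β5 while Psmb9 and Psmb10 stayed below Psmb6 and Psmb7.

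**Figure D5:**
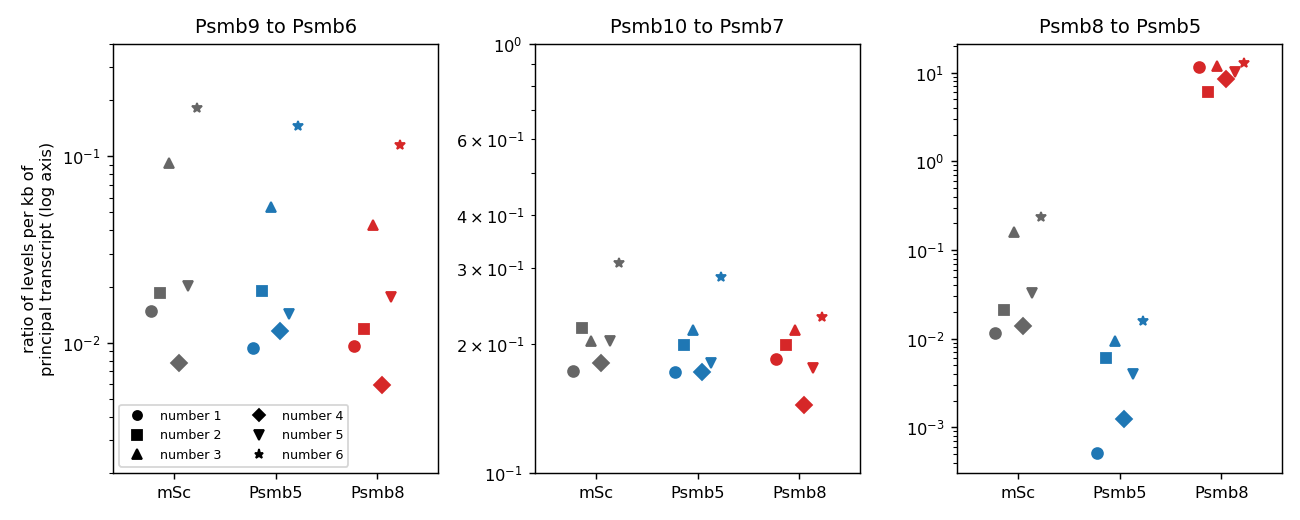
Ratio of each immunosubunit to the constitutive subunit it replaces, in levels per kilobase of principal transcript on log axes, in 18 libraries by group with marker shapes for replicate numbers. Numbers 3 and 6 lie highest for Psmb9 to Psmb6 in each group, and Psmb8 to Psmb5 reaches 6.08 to 12.7 in Psmb8 cultures.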

How the data were processed

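Poly(A) RNA of 18 libraries was measured as raw read counts per Ensembl gene in 1 table that the authors deposited, with 1 column per library and no pooling. Per the submitters' processing notes, STAR 2.4, DESeq2, GRCm39 and mm10 were used, with no role given; the counter, its strand setting and the annotation: not given in the sources used here. Of 43629 IDs, 42462 were given a symbol. Exons, lengths and coordinates came from GENCODE's GRCm38 annotation, which may differ from the build counted on.

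Counts were tested with edgeR 4.0.16 (R 4.3.3): filterByExpr, TMM, and the quasi-likelihood test in 1 fit of all 18 libraries by group. P-values were adjusted by Benjamini and Hochberg over 15671 genes, with a threshold of 0.05. SEs and 95% intervals were derived from the F statistic. Log2 CPM used a prior count of 2, and ratios 0.5 counts. Single values were compared with exact two-sided permutation or sign-flip tests. No 2 libraries of a group agreed within sampling noise (chi-square per degree of freedom of 2.8 to 35.3 over 45 pairs).

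Same-numbered libraries deviated together (r from 0.447 to 0.729 in all 18 pairs, mean 0.603, against -0.119 over 90 other pairs), a pairing read from the data, so the replicate number was also fitted as a block. The biological coefficient of variation was 17.9% without it and 5.94% with it. Other alternatives were DESeq2 1.42.0, its size factors, no low-count filter, library sizes without Psmb5 and Psmb8, fits of 2 groups, other pseudocounts and lengths, and libraries left out.

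The members and lists were chosen with earlier results of these data known. Genes named are the members, the immunosubunits and Psmb11, the called or smallest-p gene of each other proteasome list, marker genes, and the 10 genes most like the members.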

Additional observations from a re-analysis of the deposited data

Results flagged for a closer look

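Among 30 groups of 6 libraries examined for single libraries far from the rest (by Dixon's ratio, the gap to the nearest library over the group's range), 4 had one. About 1 in 20 such groups is marked by chance. All 4 concern replicate number 6 and the ratio of an immunosubunit to its constitutive counterpart. The ratio of Psmb10 to Psmb7 was 0.308 in mSc replicate 6 (gap over range 0.667) and 0.287 in Psmb5 replicate 6 (0.626). The ratio of Psmb9 to Psmb6 was 0.145 in Psmb5 replicate 6 (0.673) and 0.115 in Psmb8 replicate 6 (0.663). The interferon-stimulated genes summed to 393, 327 and 244 CPM in the mSc, Psmb5 and Psmb8 libraries numbered 6, and their part in these ratios was not tested.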

How the results depend on the processing

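Of 486 log2 fold changes of the 6 members other than Psmb5 recomputed under alternatives, 481 kept their direction and their side of the threshold, 2 newly passed it and 3 changed sign. The 2 that passed were Psmb2 (0.19) and Psmb7 (0.16) in Psmb8 against mSc under DESeq2 with the replicate block, which therefore called 2 members. That fit called 135 of 15671 genes in this comparison. The 3 sign changes were Psmb1 in Psmb5 against mSc, at 0.0008577 without mSc replicate 1, and with the block at 1.06e-05 without replicate 1 and 0.0003554 without replicate 5, against -0.01. With 1 library left out and no block it ran from -0.01654 to 0.0008577. With the replicate block edgeR called 51 genes in Psmb8 against mSc and 6 in Psmb8 against Psmb5, where it had called 1 and 2 without it, and 1 in Psmb5 against mSc both ways. The block changed no other call of a member.

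DESeq2 without the block called 2 genes in Psmb8 against mSc and 4 in Psmb8 against Psmb5. Blocked fits of 2 groups called 24 (Psmb8 against mSc), 2 (Psmb5 against mSc) and 16 (Psmb8 against Psmb5) genes, blocked DESeq2 135, 11 and 23, and the blocked fit without both replicates 3 and 6 called 2, 2 and 4. These fits and the sign-flip test were added after the data were seen. Leaving out each library gave 1 to 2 genes in Psmb8 against mSc (2 without Psmb8 replicate 5), and leaving out each replicate number with the block gave 57, 19, 9, 59, 41 and 19 genes without replicates 1 to 6 in Psmb8 against mSc. In Psmb5 against mSc it gave 1 to 3, the highest without replicate 6, and in Psmb8 against Psmb5 4 to 20, the highest without replicate 4. The cause was not tested.

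The log2 ratio of Psmb9 to Psmb6 in Psmb8 against mSc was -0.601 by either test, with p = 0.54 by exact permutation and 0.031 by the paired exact sign-flip test, and ran from -0.682 to -0.499 with a replicate number left out. The span of levels per length was 2.69-fold by merged exons and 1.67-fold by principal transcript. Without the 2 libraries farthest from the median, r with Psmb5 over the 4 left was -0.565 for Psmb2, 0.311 for Psmb4 and -0.549 for Psmb7.

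Members had 635 to 1960 counts per library outside the transgene, which limits the precision of differences of this size.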
